A study of Mus musculus with 9 samples.

Results

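Expression of 8 regulators of the mesenchyme around the lung and foregut was measured in the posterior second heart field (pSHF) of Shh mutant mouse embryos. They are Osr1, Osr2, Tbx4, Wnt2, Wnt2b, Rspo2, Fgf10 and Hsd11b2, taken by symbol from the full Cuffdiff table, where these 8 genes are 8 of 27198 rows. The tissue was microdissected at E10.5 from embryos of mixed strain background, and polyA RNA was sequenced from 5 Shh KO and 4 Shh WT libraries. The labels name no other allele, do not say which part of Shh was removed, and do not say whether each library is a different embryo or a pool. Levels are FPKM, fragments scaled to transcript length and library size, with 1 pooled value per genotype and no replicate values. Every fold change sets Shh KO over Shh WT, and a gene was called when its Cuffdiff q, taken from the authors' deposited table, was under 0.05.

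The lung buds from the ventral foregut endoderm into mesoderm that lies next to the pSHF. Shh made by that endoderm acts on the mesoderm, which sends signals back. In the mouse, Wnt2 and Wnt2b from the mesoderm together specify lung progenitors in the endoderm, and Fgf10 drives the branching of the lung epithelium. Osr1, a zinc finger transcription factor of lateral and intermediate mesoderm, is needed in the mouse for the atrial septum and the kidney.

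All 8 regulators were tested by Cuffdiff, and 4 were called lower in Shh KO and 0 higher. Rspo2 and Osr1 had the largest called falls, and Wnt2b and Hsd11b2 were the other two. At a q under 0.01, Rspo2 and Osr1 alone were called. Among 13048 named tested rows with a fold change, 0.383% were called lower and 1.56% higher. At an unadjusted Cuffdiff p under 0.05, 6 of the 8 regulators passed, 1 of them with a positive fold change, against 7.51% of all named tested rows in either direction. The median log2 fold change of the 8 was −0.78, beside 0.02 over all named tested rows. The regulators were chosen with results of these data known, so these shares describe the set and do not test it. In bulk tissue, fewer cells of a type and less RNA per cell cannot be told apart.

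**Figure D1:**
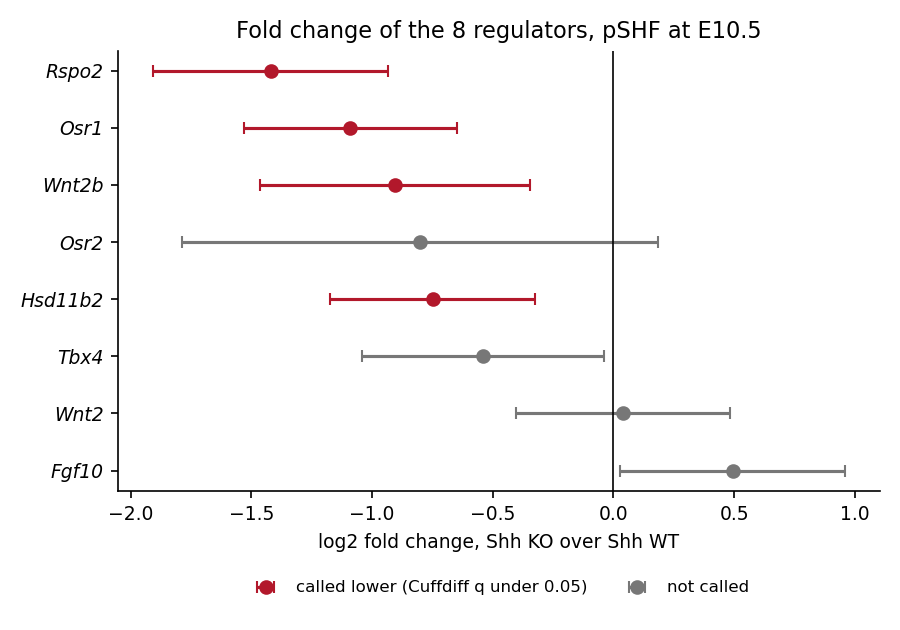
Log2 fold change of each of the 8 regulators, Shh KO over Shh WT, from the authors' deposited table; bars extend by the size of the fold change divided by the Cuffdiff statistic. Red points were called lower (q under 0.05), grey points were not called; Rspo2 is lowest at −1.42 and Fgf10 highest at 0.49.

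No standard error accompanies the fold changes. The size of the fold change divided by the Cuffdiff statistic was used as a measure of its uncertainty, on the reading that the statistic is a fold change over its error, a form that the sources used here do not state. The statistic has the opposite sign to the fold change in all 16918 tested rows that hold both, so its size was used. This ratio had a median of 0.50 log2 units over all named tested rows. Cuffdiff's p, as given by the authors' deposited table, was below the p of a standard normal deviate of the same size in 99.3% of tested rows, and with p-values read from the statistic in that way, adjusted over all tested rows, 0 of the 8 regulators were called.

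The promoters of the Wnt pair and of Fgf10 are shown because the estimated fold changes of these genes differ, a difference that was not tested. RefSeq windows (GRCm38.p6), from 250 bases before to 50 bases after a gene start and read on the gene's own strand, matched 4 of the 8 regulators (Wnt2b, Wnt2, Fgf10 and Tbx4). That RefSeq start is the start of the deposited row for Wnt2b and Fgf10, but lies 1.03 kb inside the row for Wnt2 and 10.3 kb inside it for Tbx4. Each was searched on both strands for a GLI motif (GACCACCCA), a FOX motif (TGTTTAC), a T-box motif (AGGTGTG) and a TCF/LEF motif (ATCAAAG). These 4 motifs do not overlap in the windows, and capitals mark the matches. The Wnt2b window, at chr3:104961660-104961959 on the minus strand, holds the T-box letters in reverse complement.
Wnt2b: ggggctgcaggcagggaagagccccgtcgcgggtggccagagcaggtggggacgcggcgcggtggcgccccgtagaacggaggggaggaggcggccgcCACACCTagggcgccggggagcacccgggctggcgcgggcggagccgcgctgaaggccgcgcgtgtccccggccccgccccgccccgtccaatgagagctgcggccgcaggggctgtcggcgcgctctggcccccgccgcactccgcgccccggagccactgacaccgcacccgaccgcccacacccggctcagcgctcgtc
The Wnt2 window, at chr6:18030396-18030695 on the minus strand, holds none of the 4 motifs.
Wnt2: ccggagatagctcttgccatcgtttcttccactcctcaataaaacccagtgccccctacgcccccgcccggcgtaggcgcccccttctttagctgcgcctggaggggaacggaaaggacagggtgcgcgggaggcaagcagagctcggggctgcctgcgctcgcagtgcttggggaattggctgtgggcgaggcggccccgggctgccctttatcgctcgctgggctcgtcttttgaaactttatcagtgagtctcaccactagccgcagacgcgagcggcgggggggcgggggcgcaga
The Fgf10 window, at chr13:118714449-118714748 on the plus strand, holds the FOX letters just before the gene start.
Fgf10: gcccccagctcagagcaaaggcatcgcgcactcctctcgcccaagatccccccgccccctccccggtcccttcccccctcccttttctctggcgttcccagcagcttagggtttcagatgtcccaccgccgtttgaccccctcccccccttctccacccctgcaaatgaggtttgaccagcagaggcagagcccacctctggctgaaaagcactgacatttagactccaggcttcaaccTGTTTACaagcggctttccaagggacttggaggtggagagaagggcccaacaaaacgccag

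The T-box letters occur in 5.84% of the 32851 windows in the table, the FOX letters in 3.65%, the TCF/LEF letters in 3.73% and the GLI letters in 0.253%. No GLI or TCF/LEF match lies in the 4 windows, which says only that these letters are absent there. The Wnt2b window is 79.7% G and C with 43 CpG dinucleotides, and the Wnt2 window is 65.7% G and C with 27. The Fgf10 and Tbx4 windows hold 10 and 8 CpG, beside a median of 7 over all windows.

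Osr1 fell to 33.5 FPKM in Shh KO, against 71.4 FPKM in Shh WT, per the authors' deposited table. Its log2 fold change of −1.09 (Cuffdiff q = 0.00554, the smallest q reached) had a fold change to statistic ratio of 0.44. Among the 50 genes called lower, Osr1 had the third highest FPKM in Shh WT of the authors' deposited table. Osr1 lies on chromosome 12 (9574442 to 9581500, plus strand, mm10), and no GENCODE gene overlaps its row. FPKM values were held only for the 253 called genes, so likeness in level could be measured only among these, and a shared call and direction are built into it. Within them, the closest to Osr1 over the pooled FPKM of both genotypes were Snai1, Foxf1 and Hsd11b2 per the authors' deposited table. Snai1, a zinc finger repressor of mesenchymal cells, had 36.4 FPKM in Shh KO and 65.8 FPKM in Shh WT per the authors' deposited table. Foxf1, a forkhead factor of foregut mesenchyme, had 42.5 FPKM in Shh KO and 83.5 FPKM in Shh WT per the authors' deposited table. Likeness over 2 pooled values describes level only.

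Osr2, the paralog of Osr1, is known in the mouse for palate, tooth and joint development. Its log2 fold change of −0.80 was not called (Cuffdiff p = 0.0898, q = 0.918, per the authors' deposited table). The fold change to statistic ratio was 0.99, the widest of the 8 and wider than that of 90.8% of named tested rows. Only if that ratio is read as an error does the Osr2 estimate span both no change and the fall of Osr1. The deposited Cuffdiff p of 0.0898 is below the 0.417 of a normal reading of the statistic, so the ratio may be too wide. The difference of 0.29 log2 units between the paralogs was not tested. The gene lies on chromosome 15 (35296112 to 35303305, plus strand).

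Tbx4, a T-box factor of lung and tracheal mesenchyme and of the hindlimb, had a log2 fold change of −0.54 per the authors' deposited table. It was not called (Cuffdiff p = 0.0219, q = 0.479, per the authors' deposited table). Tbx4 lies on chromosome 11 (85886458 to 85916097, plus strand), and the neighbouring T-box gene Tbx2, 44.4 kb away, stood at −0.08 per the authors' deposited table. Tbx5, which acts with Tbx4 in mouse lung mesenchyme, stood at −0.44 and was not called (Cuffdiff p = 0.0292, q = 0.562, per the authors' deposited table).

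The paralogous Wnt ligands differed in their calls. Wnt2b had 4.24 FPKM in Shh KO and 7.92 FPKM in Shh WT per the authors' deposited table, a log2 fold change of −0.90. Wnt2 had a log2 fold change of 0.04 (Cuffdiff p = 0.848, q = 1.00, per the authors' deposited table), with a fold change to statistic ratio of 0.44. The Wnt2b call stood at the edge of the threshold: its q of 0.0476 is the largest called q of the authors' deposited table, shared by 6 named rows. The next q there, 0.0502, was not called. Wnt2b minus Wnt2 came to −0.94 log2 units, beside a combined ratio of 0.71, and this difference was not tested. Wnt2b lies on chromosome 3 (104941186 to 104961709) and Wnt2 on chromosome 6 (17988894 to 18031477), both on the minus strand. A noncoding GENCODE gene on the same strand, Gm43846, lies inside the Wnt2b row. Among the called genes nearest to Wnt2b in level were Moxd1 and Cldn11 per the authors' deposited table.

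The neighbours of Wnt2b and Wnt2 are paralogous as well. St7l and Cttnbp2nl, on either side of Wnt2b, had log2 fold changes of 0.10 and −0.18 per the authors' deposited table. St7 and Cttnbp2, on either side of Wnt2, had log2 fold changes of 0.06 and −0.44 per the authors' deposited table. None of these 4 was called, which lies near the shares over all named tested rows (0.383% called lower, 1.56% higher). St7l lies 11.1 kb from Wnt2b, and Cttnbp2 lies 335 kb from Wnt2.

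**Figure D2:**
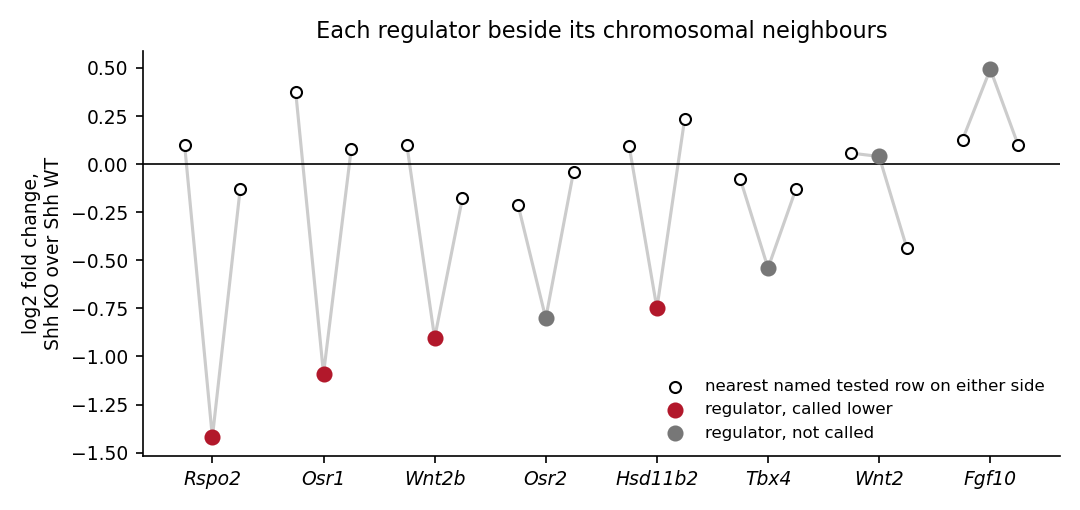
Log2 fold change of each regulator (filled; red where called lower, grey where not called) between the nearest named tested gene on either side on its chromosome (open), Shh KO over Shh WT. All 16 neighbours lie between −0.44 and 0.37, and none was called. That lies near the shares over all named tested rows, 0.383% called lower and 1.56% higher. Their distances from the regulators run from 0.481 to 809 kb, with untested rows passed over.

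Rspo2 encodes an R-spondin, a secreted protein that binds Lgr receptors and strengthens Wnt signals, and mouse mutants have lung and limb defects. It had 4.49 FPKM in Shh KO and 12.0 FPKM in Shh WT per the authors' deposited table, so 37.4% of the wild-type level remained. Its log2 fold change of −1.42 (Cuffdiff q = 0.00554) stood beside −1.55 for Ptch1, the Hedgehog receptor gene that is also a target of the pathway, per the authors' deposited table. Of the 50 genes called lower by the authors' deposited table, 25 had a lower fold change than Rspo2. Rspo2 lies on chromosome 15 (43020795 to 43170818, minus strand), with no other GENCODE gene in its row. Among the called genes closest to it in level were Dbh, an enzyme of noradrenaline synthesis, and Cldn11 per the authors' deposited table.

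No other tested R-spondin gene or Wnt receptor gene was called. Of 18 tested members of that list, Cuffdiff called 0, and 2 had an unadjusted p under 0.05. Rspo1 (−0.23), Rspo3 (0.14), Rspo4 (0.28) and the receptor Lgr4 (0.06), as log2 fold changes, were not called per the authors' deposited table. Those with a p under 0.05 were the receptors Lgr5 (0.68) and Fzd5 (0.56) per the authors' deposited table. Wnt response genes gave 0 Cuffdiff calls among 10, and 0 at an unadjusted p under 0.05. Axin2 (0.14), a feedback inhibitor induced by Wnt signals, and the transcription factors Lef1 (−0.04) and Tcf7 (−0.19) were among them per the authors' deposited table, with the feedback inhibitor Nkd1 at −0.04. The median log2 fold changes were 0.02 for the receptors and R-spondins and −0.07 for the response genes. Over all named tested rows, 0.383% were called lower and 1.56% higher, and 7.51% had an unadjusted Cuffdiff p under 0.05. In lists this short, counts of 0 lie near those shares.

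Fgf10, which signals from mesenchyme to Fgfr2 on epithelium, was the 1 regulator with a positive fold change at an unadjusted Cuffdiff p under 0.05. Its log2 fold change was 0.49 and its q was 0.562 per the authors' deposited table, so it was not called. Fgf10 lies on chromosome 13 (118714699 to 118792573, plus strand), and an antisense GENCODE gene, Gm16263, lies in its row. Which strand setting was used in counting is not stated by the labels or the notes, so reads of the 2 genes may not have been told apart. Among 10 tested genes of the FGF10 receptors and feedback, Cuffdiff called 0, and 1 had an unadjusted p under 0.05. These counts lie near the shares over all named tested rows: 0.383% called lower, 1.56% higher and 7.51% at that p. Fgfr1 (0.03), Fgfr2 (−0.20) and the feedback inhibitors Spry1 (0.14) and Spry2 (0.21) were not called per the authors' deposited table. Further out, also without a call, were the transcription factor Etv5 (−0.50, the 1 with p under 0.05), the inhibitor Spry4 (−0.42) and the ligand Fgf9 (0.49), per the authors' deposited table. The median was 0.09 on the log2 scale.

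Hsd11b2 encodes the enzyme that inactivates glucocorticoids. It had 52.4 FPKM in Shh KO and 88.0 FPKM in Shh WT per the authors' deposited table, the highest FPKM in Shh WT of the 50 genes called lower. Its log2 fold change of −0.75 (Cuffdiff q = 0.0207) was the second smallest called fall of the authors' deposited table. The ratio of fold change to statistic was 0.42. Hsd11b2 lies on chromosome 8 (105518746 to 105523988, plus strand). The nearest named tested row at higher coordinates, Atp6v0d1, lies 0.48 kb away and stood at 0.23 per the authors' deposited table without a call. Among 8 tested genes of glucocorticoid handling and response, Cuffdiff called 0, also at an unadjusted p under 0.05. That lies near the shares over all named tested rows: 0.383% called lower, 1.56% higher and 7.51% at that p. The receptor Nr3c1 stood at a log2 fold change of 0.20, H6pd at 0.01, Fkbp4 at −0.11 and Fkbp5 at −0.02 per the authors' deposited table. Hsd11b1, which reactivates glucocorticoids, was not tested by Cuffdiff.

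**Figure D3:**
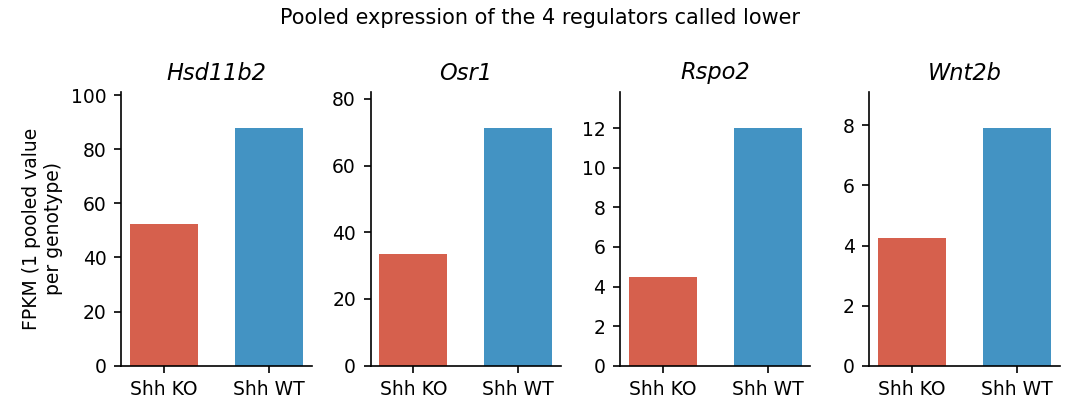
Pooled FPKM of the 4 regulators called lower, in Shh KO (left bar) and Shh WT (right bar), each panel with its own axis from 0. Osr1 had 33.5 and 71.4 FPKM and Rspo2 4.49 and 12.0 FPKM in Shh KO and Shh WT; no replicate values stand behind the bars.

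The order of the falls was not that of the levels. As differences in FPKM, Shh KO minus Shh WT, Osr1 (−37.8) and Hsd11b2 (−35.6) changed most, and Rspo2 (−7.53) and Wnt2b (−3.69) least, per the authors' deposited table. On the log2 scale the order was Rspo2, Osr1, Wnt2b and Hsd11b2, with neighbours in this order differing by less than the ratio of fold change to statistic of either.

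**Figure D4:**
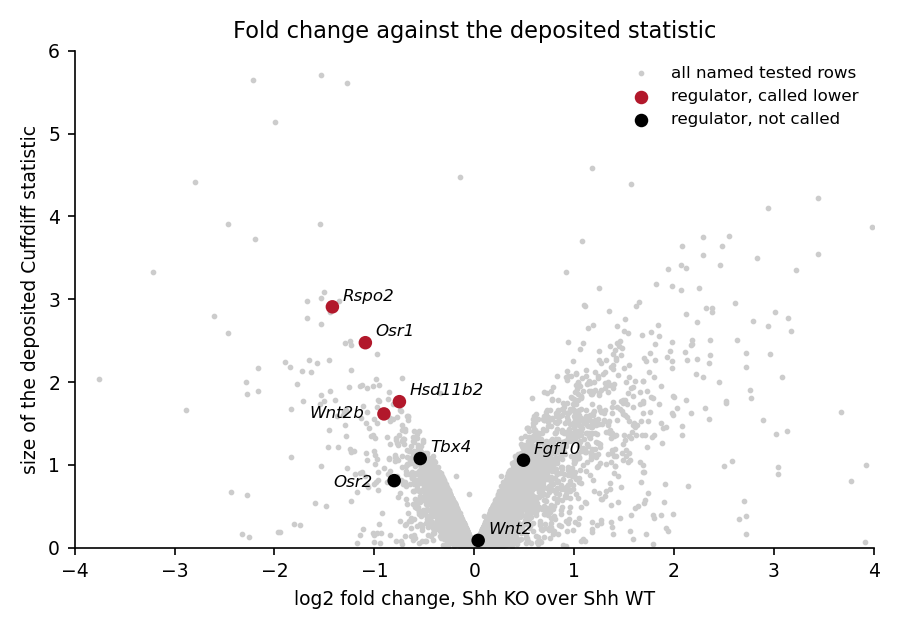
Log2 fold change, Shh KO over Shh WT, against the size of the Cuffdiff statistic for all named tested rows (light grey) and the 8 regulators (red where called lower, black where not called); 16 rows lie outside the axes. Osr2 sits inside the cloud at a statistic of 0.81 although its fold change of −0.80 is below that of Hsd11b2, which has a statistic of 1.76.

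Other genes of lung and foregut mesenchyme moved both ways. Of 18 tested, 4 were called lower and 2 higher, with a median log2 fold change of −0.10. An unadjusted Cuffdiff p under 0.05 was reached by 8 of the 18. Among all named tested rows, 0.383% were called lower, 1.56% were called higher and 7.51% reached that p. This list was also chosen with results of these data known. The forkhead factor genes Foxf2 (−2.80), Foxl1 (−2.47) and Foxf1 (−0.98) and the homeobox gene Nkx6-1 (−1.67) were called lower per the authors' deposited table. Barx1, a homeobox gene of stomach mesenchyme, had 124 FPKM in Shh KO and 66.7 FPKM in Shh WT, and Nkx2-3, of gut and spleen mesenchyme, 5.78 FPKM in Shh KO and 1.72 FPKM in Shh WT, per the authors' deposited table. Both were called higher. Tbx2 (−0.08), Tbx3 (0.03), Tbx5 (−0.44) and Hoxa5 (0.64) were not called per the authors' deposited table. Hoxb5 holds 2 rows and was left out of the count.

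Of 16 tested markers of lung and foregut endoderm, 1 was called lower and 0 higher by Cuffdiff, and 6 had an unadjusted p under 0.05. The shares over all named tested rows were 0.383% called lower, 1.56% higher and 7.51% at that p. The list was chosen with results of these data known, so these counts describe it and do not test it. Irx1, a homeobox gene, had 13.8 FPKM in Shh KO and 33.8 FPKM in Shh WT per the authors' deposited table. Nkx2-1, the factor that marks lung and thyroid endoderm, stood at −0.75 without a call (Cuffdiff p = 0.0069, q = 0.224, per the authors' deposited table). Foxa2 (−0.56, Cuffdiff p = 0.0297), Foxa1 (−0.15) and Sox2 (−0.10) were not called either per the authors' deposited table. Like Nkx2-1 and Foxa2, the genes Pax9 (−1.28), a factor of the pharyngeal endoderm, Foxp2 (−0.60) and Krt8 (0.46) had a p under 0.05 without a call, per the authors' deposited table. The lung surfactant gene Sftpc was not tested.

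**Figure D5:**
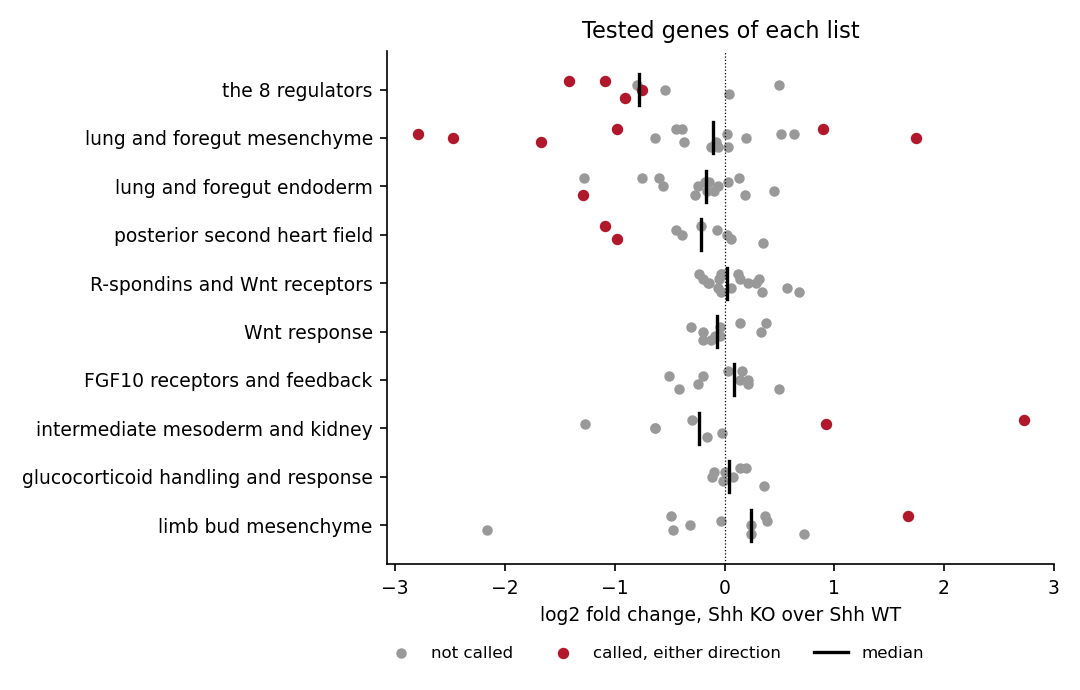
Log2 fold change, Shh KO over Shh WT, of the 8 regulators and the tested genes of part of the 17 lists. Hoxb5, with 2 rows, is not drawn. Red points were called by Cuffdiff (q under 0.05), grey points were not, and black bars are medians. The 8 regulators have a median of −0.78, while the lists drawn have medians between −0.23 and 0.24. Lists not drawn have medians from −1.45 (Hedgehog targets) to 1.77 (hepatoblast markers).

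Osr1, Tbx4, Fgf10 and Rspo2 are also transcribed in kidney or limb precursors of the mouse embryo. Of 8 tested genes of intermediate mesoderm and kidney, 0 were called lower and 2 higher by Cuffdiff, and 4 had an unadjusted p under 0.05. The 2 were Wt1 (0.92), also a gene of mesothelium, and Lhx1 (2.72), at 0.969 FPKM in Shh KO and 0.147 FPKM in Shh WT, per the authors' deposited table. Sall1 (−0.63, Cuffdiff p = 0.00825), Eya1 (−0.02), Six2 (−0.16) and Gata3 (−0.29) were not called per the authors' deposited table. Hoxa11 (−1.27) and Gdnf (−0.64, Cuffdiff p = 0.03035) lay lower, also without a call, per the authors' deposited table. Of 11 tested limb bud genes, 0 were called lower and 1 higher, and 3 had an unadjusted Cuffdiff p under 0.05. The call was Pitx1, a hindlimb homeobox gene, at 15.8 FPKM in Shh KO and 4.96 FPKM in Shh WT per the authors' deposited table. Prrx1 (−0.03), Prrx2 (−0.31), Lmx1b (−0.47) and Msx1 (0.25) were not called per the authors' deposited table. Hoxd10, a homeobox gene, had the lowest fold change of the tested limb genes at −2.17 and just missed the call (Cuffdiff q = 0.0513, per the authors' deposited table). Lhx2 (0.72) had a p under 0.05 without a call, and Hoxd11, Hoxd12 and Hoxd13 were not tested, per the authors' deposited table. Beside the kidney and limb counts, the shares over all named tested rows were 0.383% called lower and 1.56% higher. At an unadjusted Cuffdiff p under 0.05 the share was 7.51%.

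The targeted gene and the markers of other cells were read beside these values. The Shh row had 5.44 FPKM in Shh KO and 15.7 FPKM in Shh WT, and the targets Ptch1, Gli1 and Hhip were called lower, per the authors' deposited table. All 9 pSHF markers were tested, and 2 were called lower (Osr1 and Foxf1) and 0 higher. For this list and those that follow, the shares over all named tested rows were 0.383% called lower and 1.56% higher. Osr1 is itself among the 8 regulators, and Foxf1 is also counted above with the mesenchyme genes. Tbx5 (−0.44), Isl1 (−0.39), Gata4 (0.35) and Hoxb1 (−0.21) were not called per the authors' deposited table. Hepatoblast markers were called higher in 7 of 7, with a summed 472 FPKM in Shh KO and 132 FPKM in Shh WT, per the authors' deposited table. Cardiomyocyte markers were called higher in 10 of 10, with a summed 2664 FPKM in Shh KO and 1138 FPKM in Shh WT, per the authors' deposited table, where Myh6 shares its row with Myh7. Macrophage markers gave 4 of 7 higher, epicardial and mesothelial markers 3 of 7 higher, and neuronal markers 3 of 6 higher and 1 lower. Cuffdiff called 0 of 7 endothelial and 0 of 6 erythroid markers, also at an unadjusted p under 0.05. In lists this short, 0 lies near the shares over all named tested rows: 0.383% called lower, 1.56% higher and 7.51% at that p. The part of all these other cells in the values of the 8 regulators was not tested.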

How the data were processed

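Per the submitters' processing notes, the tools were TopHat2 2.0.10, which aligns spliced reads, and Cuffdiff 2.1.1. The notes name mm9, but 99.5% of 20524 symbols overlapped their RefSeq gene of GRCm38, so positions are given as mm10. Deposited starts count from 0 and have 1 added. Of the 2 deposited tables, the full one holds log2 fold changes, the authors' test statistic (a score), p-values and q-values for 27198 rows; a line that was emptied before use is not analysed here. The shorter table holds FPKM, pooled per genotype by the authors, their ratio and its log2 for 253 genes. No per-library value was used, so depth is unknown. The labels do not say that libraries are separate animals, and Cuffdiff's p-values then cover only spread among libraries, which may be technical.

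Deposited fold changes have Shh KO on top. For the 253 genes with FPKM, log2 of KO over WT pooled FPKM gives the fold change listed with it within 4.99e-10. Those fold changes differ from the full set by at most 1.07e-05. A p under 1 marked the 16944 tested rows, and Benjamini-Hochberg adjustment, first tested on simulated data, returned every deposited q within 0.0001. Of these rows, 3879 have no gene name and were left out of counts. The largest called p is 0.00075 and the smallest p is 5e-05.

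The 8 genes and all 17 lists were chosen with earlier results of these data known. Named are the 8 genes, the nearest named tested row on either side, list members that were called with up to 4 that were not, in list order, and the 3 nearest genes in pooled FPKM; some genes named by these rules are not reported here. Further uncalled list members named for their size or p, motifs and the reading of the statistic as a normal deviate were chosen after the data were seen. Python 3.11.15, pandas 2.3.3 and scipy 1.17.1 were used.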

Additional observations from a re-analysis of the deposited data

How the results depend on the processing

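The 4 regulators called lower became 2 at a Cuffdiff q under 0.01 (Osr1 and Rspo2) and 2 when at least a 2-fold change was also required (Osr1 and Rspo2). They became 0 when p was read from the statistic as a normal deviate, an alternative chosen after the data were seen. They also became 0 under Benjamini-Yekutieli adjustment. That adjustment gives 0.0571 at the smallest p, so no gene could be called under it, whatever its change. The count remained 4 at a q under 0.10 and with adjustment over named rows alone; leaving out rows that overlap another removed none of the 8. No regulator was called higher in any of these settings. Over all named genes, the 203 called higher became 132 at a q under 0.01. Benjamini-Yekutieli adjustment, under which no gene could be called, gave 0 higher and 0 lower. The normal reading gave 6 higher and 17 lower, against 50 lower as reported. At a q under 0.01, calls higher became 1 for mesenchyme and 1 for kidney genes (2 each as reported), and 1 for epicardial (3) and 1 for macrophage (4) markers. At a q under 0.10, calls lower became 1 for limb (0 as reported) and 2 for neuronal (1) genes. Adding 1 or 0.1 FPKM, possible only for the 4 called regulators, moved none of their fold changes by more than its ratio to the statistic. Subtracting the overall median of 0.02 shifts all genes alike. No paired analysis was possible because the tables hold 1 pooled value per genotype, and leaving out single replicates could not be run for the same reason. Unknown depth and a smallest p shared by 153 tested rows limit the ranking of genes.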
